A study of Mus musculus with 28 samples.

Results

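The genes described here are 8 regulators of the epithelial-to-mesenchymal transition (EMT), namely the transcription factor genes *Snai1*, *Snai2*, *Twist1*, *Twist2*, *Zeb1* and *Zeb2* and the cadherin genes *Cdh1* and *Cdh2*. They were chosen by name, and are 8 of the 22367 protein-coding genes in the mm9 annotation. The cells were mouse embryonic stem cell (ESC) cultures at day 4 of differentiation, after 40 h of VEGF, Activin A and BMP4, which induce mesoderm. Both alleles of *Brg1* were floxed and the cells expressed a tamoxifen-inducible Cre under an Actin promoter (Brg1f/f; Actin-CreER). They received at day 2 either 200 nM 4-OHT in THF, which deletes *Brg1* (4-OHT), or THF alone (control). Brg1 is the ATPase of BAF chromatin remodeling complexes. ChIP-seq, which sequences the DNA pulled down with a protein or histone mark, was performed for H3K27ac (2 control and 2 4-OHT replicates), H3K27me3 (3 and 3), Suz12 (2 and 2) and FLAG-tagged Brg1 (3 replicates without 4-OHT), and 11 inputs make up the rest of the 28 samples. The labels give the FLAG samples the same genotype as the others, whereas the paper describes ESCs with a FLAG tag on *Brg1*, and the floxed cells are a single line.

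During EMT, epithelial cells lose their junctions and become migratory, as cells of the early embryo do when they leave the epiblast through the primitive streak to form mesoderm. *Cdh1* encodes E-cadherin, the adhesion molecule of epithelial cells, and *Cdh2* encodes N-cadherin, which replaces it in mesoderm. Snail, Twist and Zeb proteins are transcription factors that act in this switch, and Snail and Zeb proteins repress *Cdh1* through E-box sequences. H3K27ac marks active promoters and enhancers, whereas H3K27me3 is deposited by Polycomb repressive complex 2 (PRC2), of which Suz12 is a subunit, and is associated with silent genes.

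The 17 deposited lists hold only the positions of enriched regions, so the measure used here was the number of base pairs (bp) that the regions of a list cover. It says where enrichment passed the threshold of the caller and not how strong it was. It was taken in windows of 5 kb either side of the transcriptional start site (TSS window), the gene body, and the gene body with 50 kb on each side (extended window). A gene was called lower or higher after 4-OHT when every 4-OHT list lay below or above every control list. An exact two-sided permutation test of the mean difference cannot give a p below 0.333 for 2 lists against 2, or below 0.1 for 3 against 3, so no single gene could pass 0.05, and the calls are read against the share of all protein-coding genes called in the same way. The lists held 32161 to 41062 regions for H3K27ac, 6787 to 16959 for H3K27me3 and 2913 to 4016 for Suz12. FLAG replicates 1 and 2 held 8021 and 8257 regions but replicate 3 only 192, so results on Brg1 rest on replicates 1 and 2. Replicate 1 of H3K27me3 stood apart in both conditions, with regions no wider than 9300 bp in the control and 7550 bp after 4-OHT, against up to 94725 bp in the other lists.

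Markers of the cell types that such cultures can hold were read from the TSS windows. Of 6 mesoderm and primitive streak genes, 5 (*T*, *Mixl1*, *Eomes*, *Mesp1* and *Pdgfra*) had H3K27ac in both control lists, and *Kdr* had none in any H3K27ac list. Of 3 pluripotency genes, *Pou5f1* and *Nanog* had H3K27ac in both control lists. The neural genes *Pax6* and *Neurog2* and the endoderm genes *Sox17* and *Foxa2* had no H3K27ac in any list and had H3K27me3 and Suz12 in every control list. Of the 6 mesoderm genes, 4 (*T*, *Eomes*, *Kdr* and *Pdgfra*) also had H3K27me3 in every control list, and *Pdgfra* had Suz12 in both. The summed H3K27ac of the mesoderm genes was 19190 to 27264 bp in the control lists and 13264 to 20089 bp after 4-OHT, with 2 of 6 genes lower (*T* and *Mesp1*), and that of the pluripotency genes was 10594 to 10694 bp and 10569 to 10644 bp, with *Nanog* lower. In the TSS window 6.76% of all protein-coding genes were lower for H3K27ac, and 14.2% of those with it in both control lists. Suz12 was higher after 4-OHT at 4 of the 6 mesoderm genes (*T*, *Mixl1*, *Kdr* and *Pdgfra*), beside 3.29% of all protein-coding genes. The sums over the 6 were 725 to 2225 bp in the control lists and 2400 to 6275 bp after 4-OHT. *Mesp1* had no Suz12 in any list. Suz12 was lower at *Neurog2* and *Foxa2*, beside 0.590% of all genes. The neural sums were 14025 to 14675 bp in control and 12803 to 13975 bp after 4-OHT. The endoderm sums were 12578 to 14103 bp and 10157 to 12257 bp. Of genes with Suz12 in both control lists, 25.9% were higher and 9.78% lower. The part of cell composition in the results below was not tested, and in such bulk cultures fewer cells of a type and less mark per cell cannot be told apart.

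In control cultures the members fell into 3 patterns at the TSS (heat map of all lists). *Snai1* and *Cdh1* had H3K27ac in every control list and no H3K27me3 or Suz12 in any list. *Zeb2* and *Cdh2* had both H3K27ac and H3K27me3 in every control list, with Suz12 listed only as 1 region of 25 bp at *Cdh2* in 1 4-OHT list. *Snai2*, *Twist1*, *Twist2* and *Zeb1* had H3K27me3 in every list, and of these only *Twist1* had any H3K27ac in the TSS window. In all, 4 of 8 members had H3K27ac in both control lists, beside 47.7% of all protein-coding genes, 6 of 8 had H3K27me3 in all 3 control lists, beside 11.8%, and 2 of 8 had Suz12 in both control lists, beside 6.04%.

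**Figure D1:**
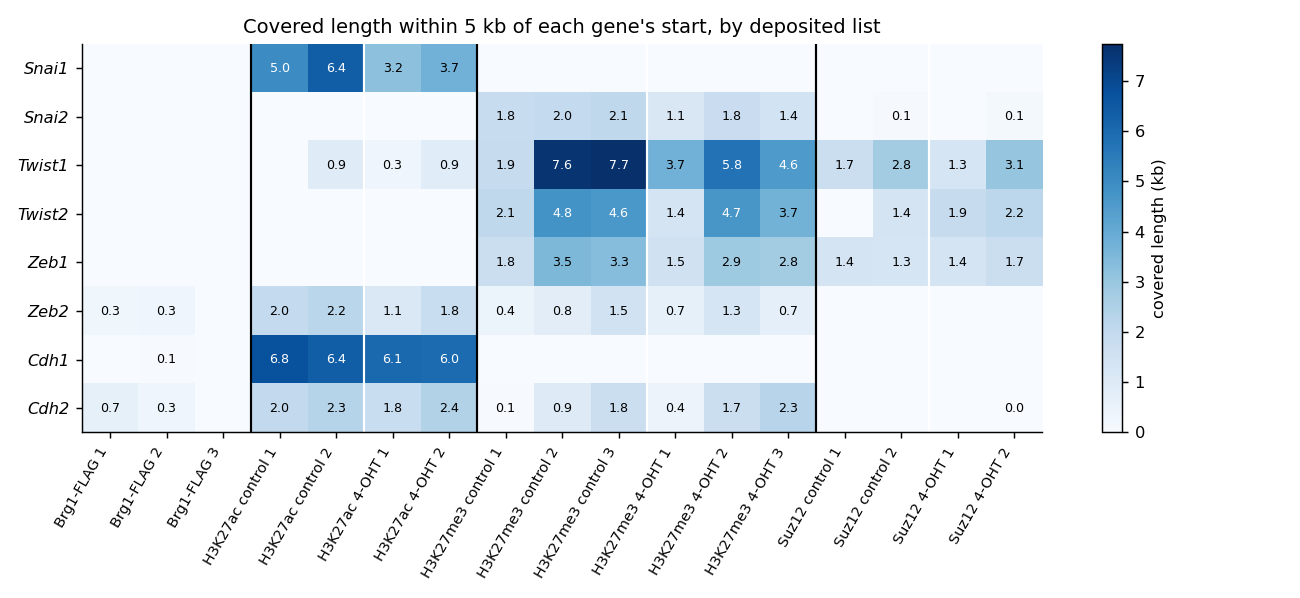
Covered length in kb within 5 kb of the start of each member (rows) in each of the 17 lists (columns, replicate numbers at the end of the names), with blank cells at 0. *Snai1* and *Cdh1* show H3K27ac without H3K27me3 or Suz12, with 50 bp of FLAG at *Cdh1* in replicate 2. *Snai2*, *Twist1*, *Twist2* and *Zeb1* show chiefly H3K27me3, and *Zeb2* and *Cdh2* both histone marks.

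To ask which members Brg1 occupied, overlapping FLAG regions (by 1 bp or more) were joined across replicates. Brg1-bound regions were those that 2 or more of the 3 replicates listed. Of the 8 members, 2 had a Brg1-bound region, and these were *Zeb2* with 3 and *Cdh2* with 5. The same 2 members were counted in the TSS window, where 2.11% of all protein-coding genes had a Brg1-bound region, in the gene body, where 3.63% had one, and in the extended window, where 12.5% had one. All 8 Brg1-bound regions were listed in replicates 1 and 2 and none in replicate 3, which held no region near any member, so that leaving out replicate 1 or replicate 2 left no Brg1-bound member. *Snai1* had 5 and *Cdh1* had 3 FLAG regions listed in a single replicate, and *Snai2*, *Twist1*, *Twist2* and *Zeb1* had none in their extended windows. Over all members there were 30 merged FLAG regions, of which 18 overlapped H3K27ac in both control lists and 8 overlapped it in neither.

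*Zeb2*, a zinc finger and homeodomain repressor, lies on chromosome 2, minus strand, at 44839154 to 44972915 (mm9), and no other protein-coding gene lies in its extended window. Its 3 Brg1-bound regions were intronic and lay 1.01, 79.3 and 117.0 kb from the TSS. The sequences are shown because H3K27ac regions were listed over each of them in control cultures and were shorter or absent after 4-OHT. Each is a 300 bp window centred on the region, read from the plus strand of mm9, with the bases listed in both replicates in capitals.
Zeb2 intron, chr2:44971751-44972050: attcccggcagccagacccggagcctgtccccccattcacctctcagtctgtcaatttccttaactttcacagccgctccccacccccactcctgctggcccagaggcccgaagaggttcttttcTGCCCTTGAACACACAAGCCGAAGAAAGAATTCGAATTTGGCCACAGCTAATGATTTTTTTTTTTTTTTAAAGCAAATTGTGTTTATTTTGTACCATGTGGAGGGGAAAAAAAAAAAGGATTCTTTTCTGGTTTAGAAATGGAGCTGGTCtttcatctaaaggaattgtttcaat
Zeb2 intron, chr2:44893501-44893800: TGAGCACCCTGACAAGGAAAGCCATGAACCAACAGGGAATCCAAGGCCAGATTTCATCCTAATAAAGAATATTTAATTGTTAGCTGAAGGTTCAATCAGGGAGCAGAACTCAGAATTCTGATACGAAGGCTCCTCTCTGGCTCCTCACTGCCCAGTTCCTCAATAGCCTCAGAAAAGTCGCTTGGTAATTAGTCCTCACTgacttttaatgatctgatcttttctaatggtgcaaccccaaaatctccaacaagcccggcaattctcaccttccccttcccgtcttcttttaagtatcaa
Zeb2 intron, chr2:44855738-44856037: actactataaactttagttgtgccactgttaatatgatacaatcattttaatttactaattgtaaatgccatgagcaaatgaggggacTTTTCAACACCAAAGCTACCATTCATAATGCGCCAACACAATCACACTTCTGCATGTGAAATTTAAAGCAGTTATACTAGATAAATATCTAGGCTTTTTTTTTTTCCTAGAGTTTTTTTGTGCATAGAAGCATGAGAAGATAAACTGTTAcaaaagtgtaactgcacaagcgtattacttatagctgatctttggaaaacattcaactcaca
The stretches in capitals are 150, 200 and 150 bp long. None of the 3 windows held the E-box CAGGTG, the GATA motif AGATAAG, the T-box motif AGGTGTGA or the Fox motif TGTTTAC on either strand, where a T-box match can overlap an E-box. Only these exact letters were searched, so sites of these families with other letters were not looked for. The paper scanned its Brg1-bound regions with TRANSFAC motifs instead. Of the 300 bp windows centred on all 2390 Brg1-bound regions, 17.7% held the E-box, 5.77% the GATA, 1.76% the T-box and 5.06% the Fox motif.

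H3K27ac at *Zeb2* covered less in both 4-OHT lists than in either control list, in all 3 windows. In the gene body the control lists covered 4065 and 9415 bp and the 4-OHT lists 940 and 1915 bp. The mean went from 6740 ± 3783 bp (SD, n = 2) to 1427.5 ± 689.4 bp (n = 2), which is 21.2% of control, and the 2 conditions did not overlap (exact permutation test, p = 0.333, the smallest possible). The control lists themselves differed by more than the highest 4-OHT list covered. Nearer the TSS the difference was smaller, with 1975 and 2225 bp in control, against 1100 and 1800 bp after 4-OHT.

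The regions that made up this difference lay along the gene. The widest, merged over lists from 44892626 to 44895250 and holding the Brg1-bound region 79.3 kb downstream, covered 1250 and 2625 bp in control, against 0 and 250 bp after 4-OHT. The H3K27ac over the Brg1-bound region 117.0 kb downstream was listed in control replicate 2 alone, with 300 bp. Of 7 regions present in both control lists, 3 were in neither 4-OHT list, and these lay in introns 21.9 kb (44950701 to 44951300), 25.7 kb (44946976 to 44947475) and 29 kb (44943826 to 44944000) from the TSS. No FLAG region overlapped any of these 3. No region was gained in both 4-OHT lists.

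*Cdh2*, on chromosome 18, minus strand, at 16747386 to 16967755, likewise has no protein-coding neighbour in its extended window. A Brg1-bound region of 850 bp (16967976 to 16968825) lay 0.645 kb upstream of the TSS. The other 4 lay in introns, at 67.7 kb (16899901 to 16900175), 68.3 kb (16899301 to 16899650), 72.7 kb (16894826 to 16895250) and 100.3 kb (16867326 to 16867550). H3K27ac overlapped all of them in both control lists except the last, where no list had any.

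At the *Cdh2* TSS, H3K27ac covered 2000 and 2325 bp in control, against 1800 and 2400 bp after 4-OHT, so the conditions overlapped. In the gene body it covered 8130 and 13805 bp in control, against 3430 and 7455 bp after 4-OHT, without overlap. The mean there went from 10967.5 ± 4012.8 bp (SD, n = 2) to 5442.5 ± 2846.1 bp (n = 2), or 49.6% of control (exact permutation test, p = 0.333). In the extended window the lists covered 9050 and 14950 bp against 4325 and 8650 bp, and these overlapped when each list was scaled to its total covered length. The widest region (16893551 to 16900775), which holds 3 of the Brg1-bound regions, covered 6050 and 7225 bp in control, against 2525 and 5825 bp after 4-OHT. A pair of intronic regions 21.7 kb (16945501 to 16946700) and 22.7 kb (16944801 to 16945250) from the TSS, of 6 in both control lists, were in neither 4-OHT list, and FLAG replicate 2 listed a region within the first.

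**Figure D2:**
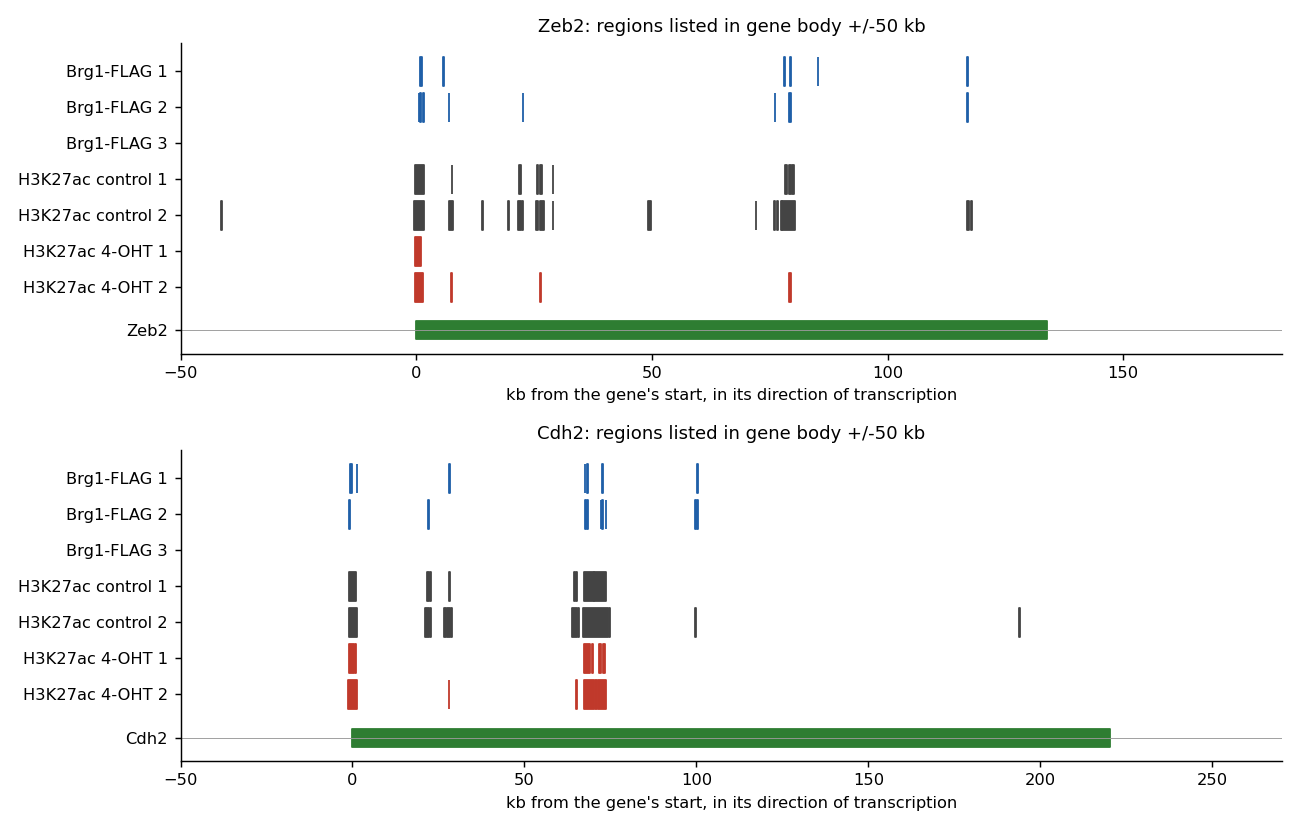
Regions listed in each FLAG and H3K27ac list along *Zeb2* and *Cdh2* (green bars), by distance in kb from the gene's start, with control lists in grey and 4-OHT lists in red (bars narrower than 0.15 kb are drawn at that width). H3K27ac remained at both starts in all 4 lists, and intronic regions between 21.7 and 29 kb that both control lists held were short or absent in the 4-OHT lists.

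*Snai1*, a zinc finger repressor expressed in the primitive streak, lies on chromosome 2, plus strand, at 167363695 to 167368314. Its H3K27ac was lower after 4-OHT in all 3 windows. At the TSS the lists covered 4995 and 6370 bp in control, against 3220 and 3720 bp after 4-OHT, and the mean went from 5682.5 ± 972.3 bp (SD, n = 2) to 3470 ± 353.6 bp (n = 2), which is 61.1% of control (exact permutation test, p = 0.333). The conditions did not overlap, and each 4-OHT list was below both control lists by more than 1 kb. The gene body covered 4564 and 4589 bp in control, against 2839 and 3339 bp after 4-OHT, and this call alone was lost when regions within 1 kb were joined.

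The domain over *Snai1* (167363726 to 167370425) was the widest in its window, with 6525 and 6700 bp in control, against 4775 and 5400 bp after 4-OHT. Farther downstream, regions at 21.2 kb (167383426 to 167386350, with 2050 and 2925 bp against 700 and 1450 bp) and 25.9 kb (167387301 to 167391825, with 3600 and 4525 bp against 1450 and 3075 bp) were also lower. Both lie in the annotated gene *Gm11476* and each overlapped FLAG regions of replicate 1 only. Regions 1.94 kb upstream (167361551 to 167361950) and 48 kb downstream (167411501 to 167411825) were in both control lists and in neither 4-OHT list. The region at the start of the neighbouring genes *Rnf114* and *Spata2*, 45.9 kb upstream, moved the other way, with 1925 and 1850 bp in control, against 2725 and 2825 bp after 4-OHT. The extended window of *Snai1*, which includes these neighbours, held 18400 and 21600 bp in control, against 14100 and 16125 bp after 4-OHT.

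*Cdh1* lies on chromosome 8, plus strand, at 109127251 to 109194146, and *Cdh3*, *Gm10073* and *Tmco7* reach into its extended window. It held more H3K27ac than any other member, with 27700 and 24400 bp over the gene body in control and 31400 and 26650 bp after 4-OHT, and these ranges overlapped. Scaled to the total covered length of each list, the gene body and the extended window were higher after 4-OHT. The widest region, which runs from the promoter through the first part of the gene (109126526 to 109144875), differed little, with 18175 and 17925 bp in control, against 18350 and 18100 bp after 4-OHT. In the TSS window *Cdh1* was called lower, with 6751 and 6376 bp in control, against 6051 and 5976 bp after 4-OHT, a mean difference of -550 bp. A region 3.6 kb upstream (109123101 to 109124200) covered 1100 and 975 bp in control, against 325 and 400 bp after 4-OHT, and in the window of 2.5 kb, which leaves it out, the mean was 125 bp higher after 4-OHT and the call was lost. The call was also lost when lists were scaled. FLAG replicate 2 listed 50 bp in this region. An intronic region 50.9 kb downstream (109177951 to 109178325), with 200 and 375 bp in control, was in neither 4-OHT list. An intergenic region 42.7 kb upstream (109084101 to 109084925) was in neither control list and covered 825 and 25 bp after 4-OHT. The nearest protein-coding starts to these were those of *Tmco7* and *Gm10073*, not *Cdh1*.

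**Figure D3:**
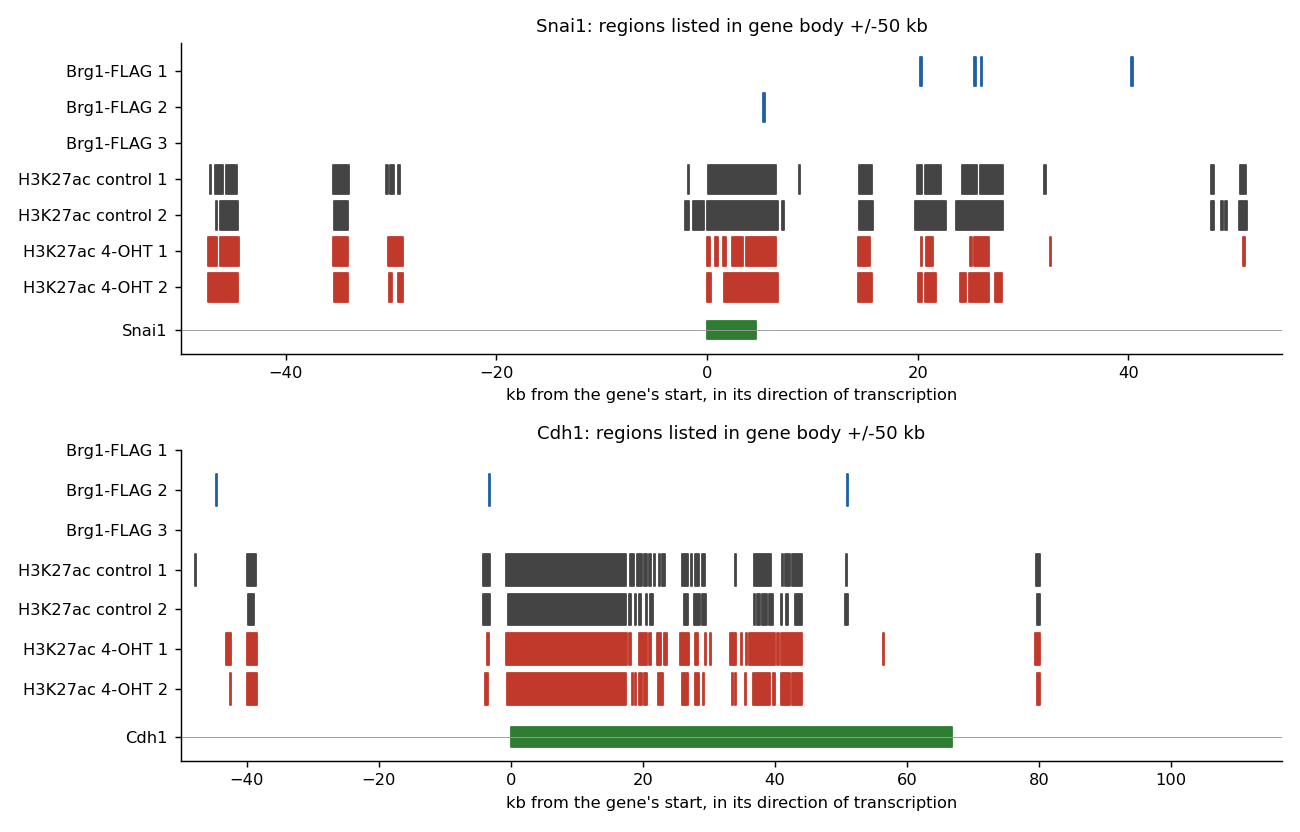
Regions listed in each FLAG and H3K27ac list along *Snai1* and *Cdh1* (green bars), by distance in kb from the gene's start, with control lists in grey and 4-OHT lists in red (bars narrower than 0.15 kb are drawn at that width). The domain over *Snai1* and those at 21.2 and 25.9 kb were narrower in both 4-OHT lists, whereas the domain at the start of *Cdh1* spanned about the same length in all 4 lists.

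Over the members, H3K27ac was lower after 4-OHT at 3 of 8 genes in the TSS window (*Snai1*, *Zeb2* and *Cdh1*), beside 6.76% of all protein-coding genes, and at 4 of 8 in both the gene body and the extended window (*Snai1*, *Zeb2*, *Cdh2* and *Twist2*), beside 10.3% and 17.6%. It was higher at none, beside 21.4%, 18.7% and 31.1% of all genes in the 3 windows. Among the 10669 genes with H3K27ac in both control lists at the TSS, 14.2% were lower and 41.5% higher. Among genes so marked in the gene body the shares were 20.7% and 34.1%, and in the extended window 23.5% and 39.7%. *Twist2* entered these counts through small intronic regions only, with 725 and 1200 bp in control, against 525 and 0 bp after 4-OHT over its gene body. Its TSS window held no H3K27ac in any list. *Twist1*, with 0 and 925 bp in control, against 350 and 900 bp after 4-OHT at the TSS, overlapped between conditions, as did *Zeb1*, whose 3 H3K27ac regions all lay beyond the end of the gene. *Snai2* had no H3K27ac in its extended window.

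**Figure D4:**
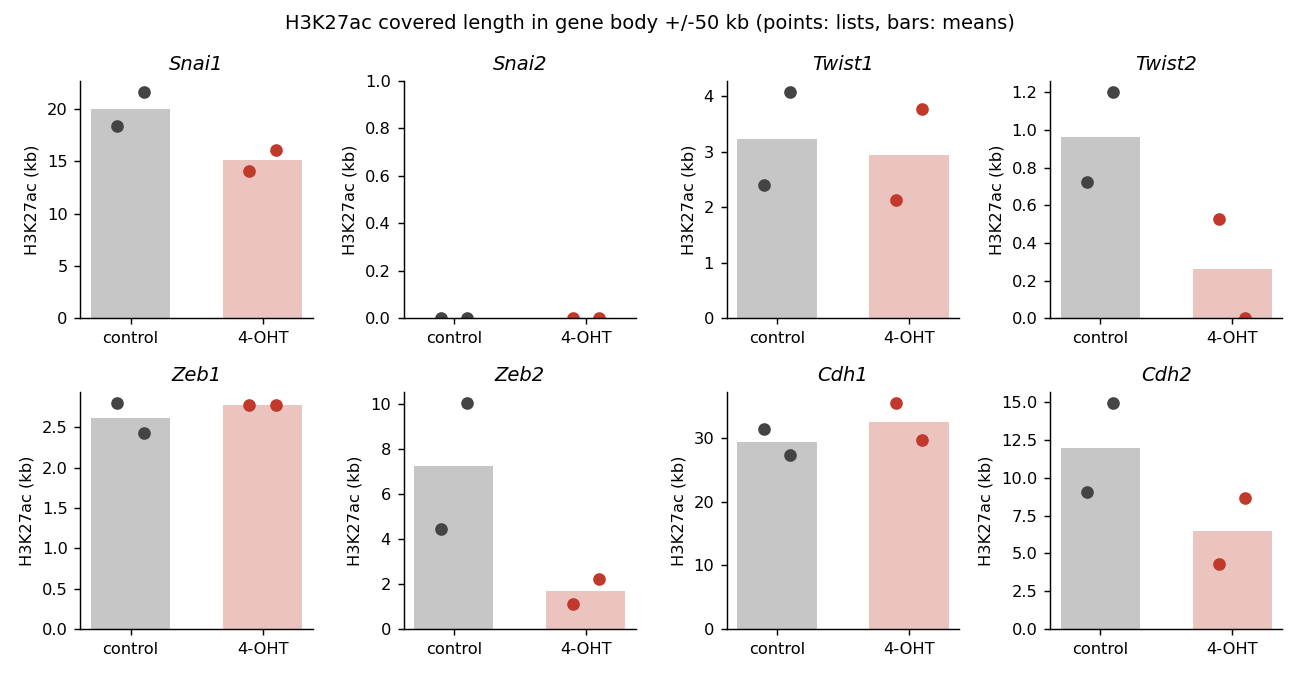
H3K27ac covered length in kb in the gene body with 50 kb on each side, for each member in 2 control and 2 4-OHT lists (points), with bars at the mean and vertical axes that differ between genes. The 4-OHT points lie below both control points for *Snai1*, *Twist2*, *Zeb2* and *Cdh2*, overlap for *Twist1*, *Zeb1* and *Cdh1*, and are all at 0 for *Snai2*.

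Counted by region, 44 H3K27ac regions called in both control lists lay in the extended windows of the members, and 10 of them (22.7%, 95% exact binomial interval 11.5 to 37.8, which covers counting error only) had no overlapping region in either 4-OHT list. Over the genome the share was 5411 of 27332, or 19.8%, which lies within this interval. The interval takes regions of the same gene as independent. The comparison moved with the setting. It was 40.9% near the members beside 27.6% over the genome when missing from at least 1 4-OHT list. It was 45.5% beside 30.4% when 50% of a region had to be overlapped, and 11.1% beside 13.4% for regions of at least 500 bp. By gene, the regions in neither 4-OHT list were 3 of 7 at *Zeb2*, 2 of 9 at *Snai1*, 2 of 3 at *Twist2*, 2 of 6 at *Cdh2*, 1 of 15 at *Cdh1*, 0 of 3 at *Zeb1* and 0 of 1 at *Twist1*. In the other direction, 1 of 31 regions in both 4-OHT lists (3.23%) was in neither control list, beside 8.79% over the genome.

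The Polycomb marks divided the factor genes. The basic helix-loop-helix factor gene *Twist1*, on chromosome 12, plus strand, at 34642536 to 34644682, had the highest mean H3K27me3 of the members at the TSS, with 1900, 7611 and 7736 bp in control, against 3725, 5761 and 4561 bp after 4-OHT (replicates 1 to 3). The mean was 5749 ± 3333.9 bp (SD, n = 3) in control and 4682.3 ± 1023.4 bp after 4-OHT (exact permutation test, p = 0.6). The low value in control was that of replicate 1. Without it, all 4-OHT lists lay below the remaining control lists. Its widest H3K27me3 region (34642551 to 34649100) covered 3075, 6250 and 6550 bp in control, against 3000, 5375 and 5950 bp after 4-OHT. Suz12 at its TSS covered 1736 and 2761 bp in control, against 1300 and 3061 bp after 4-OHT. A small Suz12 region 10.3 kb downstream (34652776 to 34652925) was listed in both 4-OHT lists, with 125 bp each, and in neither control list, inside the span of an H3K27ac region (34650626 to 34653625) present in all 4 lists.

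*Twist2*, a second basic helix-loop-helix gene, lies on chromosome 1, plus strand, at 93698038 to 93744605. Suz12 at its TSS covered 0 and 1350 bp in control, against 1900 and 2175 bp after 4-OHT. The 4-OHT lists exceeded both control lists, with means of 675 ± 954.6 bp and 2037.5 ± 194.5 bp (SD, n = 2 each, exact permutation test, p = 0.333). This was the only member called for Suz12 in any window (1 of 8 higher and 0 lower in each), beside 3.29% of all genes higher and 0.590% lower in the TSS window, 3.21% and 0.572% in the gene body, and 7.35% and 1.32% in the extended window. Of genes with Suz12 in both control lists, which *Twist2* was not, 25.9% were higher in the TSS window. The gene body call was lost when lists were scaled. H3K27me3 at the *Twist2* TSS covered 2100, 4775 and 4625 bp in control, against 1375, 4675 and 3700 bp after 4-OHT, and these overlapped. The calls for Suz12 rest on few lists: without 4-OHT replicate 1, which listed less than 4-OHT replicate 2 at every member with Suz12, 5 members were higher (*Snai2*, *Twist1*, *Twist2*, *Zeb1* and *Cdh2*, in the TSS window, beside 7.56% of all genes, 7.41% in the gene body and 17.9% in the extended window), and without control replicate 1 *Zeb1* was higher as well.

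RefSeq promoters matched 4 of 8 members (*Snai1*, *Twist1*, *Twist2* and *Zeb2*, not *Snai2*, *Zeb1*, *Cdh1* and *Cdh2*). The 250 bases upstream of the TSS are shown for the H3K27ac-marked *Snai1* and for *Twist1* and *Twist2*, which carried Polycomb marks, all on the plus strand as found in mm9, with the E-box CAGGTG, on either strand, in capitals.
Snai1 promoter, chr2:167363445-167363694: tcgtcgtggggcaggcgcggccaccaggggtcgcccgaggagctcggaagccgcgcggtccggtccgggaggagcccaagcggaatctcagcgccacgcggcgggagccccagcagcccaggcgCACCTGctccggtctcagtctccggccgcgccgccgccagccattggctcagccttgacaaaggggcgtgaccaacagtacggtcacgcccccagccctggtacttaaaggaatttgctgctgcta
Twist1 promoter, chr12:34642286-34642535: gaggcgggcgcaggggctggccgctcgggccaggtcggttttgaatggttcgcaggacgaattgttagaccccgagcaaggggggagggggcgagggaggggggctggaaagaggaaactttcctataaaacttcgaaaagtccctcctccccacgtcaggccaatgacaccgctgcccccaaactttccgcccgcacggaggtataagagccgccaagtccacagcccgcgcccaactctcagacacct
Twist2 promoter, chr1:93697788-93698037: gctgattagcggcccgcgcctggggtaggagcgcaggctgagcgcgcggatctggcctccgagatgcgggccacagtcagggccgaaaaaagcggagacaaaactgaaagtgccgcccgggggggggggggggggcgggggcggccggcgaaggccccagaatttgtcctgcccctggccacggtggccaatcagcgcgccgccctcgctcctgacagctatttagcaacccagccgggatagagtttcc
The *Snai1* promoter held 1 E-box, starting 126 bases upstream of the TSS, and those of *Twist1* and *Twist2* held none, beside 17.2% of all 32851 RefSeq promoters with one in these bases. They held 27, 18 and 23 CG dinucleotides, beside a median of 6. In the lists, the 250 bases of *Twist2* were covered whole by Suz12 in both 4-OHT lists and not at all in either control list. Those of *Twist1* held Suz12 over 85 and 250 bases in control and 0 and 110 after 4-OHT. The *Snai1* bases were in no list of any mark, as its H3K27ac domain began just downstream of the TSS.

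*Snai2*, the second Snail gene of the list, lies on chromosome 16, plus strand, at 14705945 to 14709488. H3K27me3 at its TSS covered 1825, 1975 and 2100 bp in control, against 1150, 1775 and 1450 bp after 4-OHT, so all 4-OHT lists lay below all control lists. The means were 1966.7 ± 137.7 bp (SD, n = 3) and 1458.3 ± 312.6 bp (exact permutation test, p = 0.1, the smallest possible). Scaled to the total covered length of each list the mean difference turned to 67.5 bp higher after 4-OHT with overlap, and the call was also lost among regions of at least 200 bp and with equal numbers of regions. Suz12 was listed only in replicate 2, with 75 bp in control, against 125 bp after 4-OHT. *Snai2* was the only member called lower for H3K27me3, in the TSS window (1 of 8, beside 2.25% of all genes) and the extended window (1 of 8, beside 6.90%), while in the gene body it was 0 of 8, beside 1.86%. No member was called higher, beside 0.0358%, 0.0313% and 0.0626%. Only a gene with H3K27me3 in every control list can be called lower, and 6 of 8 members were such genes, beside 11.8% of all genes at the TSS. Of all such genes, 19% were lower in the TSS window, 24.2% in the extended window and 17.2% in the gene body. Scaling turned the share of higher among all called genes in the TSS window from 1.56% to 45.9% for H3K27me3 and from 84.8% to 69.7% for Suz12.

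*Zeb1*, the paralog of *Zeb2*, lies on chromosome 18, plus strand, at 5591858 to 5775465 and shares its start with the annotated gene *Gm10125*. H3K27me3 at its TSS covered 1750, 3525 and 3325 bp in control, against 1525, 2875 and 2750 bp after 4-OHT, and Suz12 covered 1375 and 1325 bp against 1375 and 1725 bp. *Zeb2* and *Cdh2* carried H3K27me3 beside their H3K27ac, inside the gene for *Zeb2* and on both sides of the start for *Cdh2*. At *Zeb2* it covered 411, 811 and 1461 bp in control, against 661, 1311 and 725 bp after 4-OHT, and at *Cdh2* 50, 950 and 1750 bp against 425, 1700 and 2275 bp. These overlapped between conditions.

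Same-numbered H3K27me3 replicates of the 2 conditions deviated together, and paired by number the TSS window was lower after 4-OHT in 3 of 3 pairs at *Snai2*, *Twist2* and *Zeb1* and higher in 3 of 3 pairs at *Cdh2*. Of all genes 8.28% were lower and 0.152% higher in every pair, and an exact sign-flip test over 3 pairs cannot give a p below 0.25. The same 3 members were lower in every pair in the gene body, beside 6.95% of all genes, and in the extended window, beside 21.9%. Without both lists of replicate 1, 3 members were lower without overlap in the TSS window (*Snai2*, *Twist1* and *Zeb1*), beside 6.76% of all genes. All these shares are over genes with or without H3K27me3, whereas 6 of 8 members had it in every control list.

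**Figure D5:**
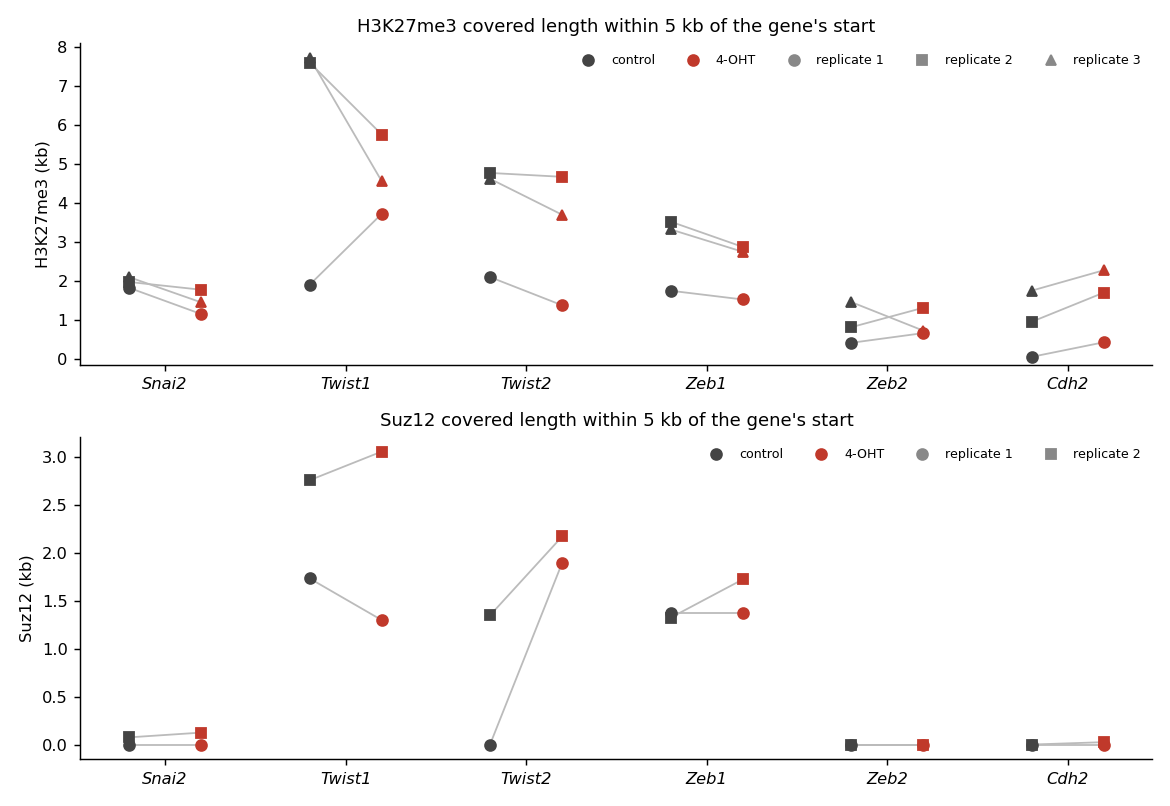
Covered length in kb of H3K27me3 (top, 3 replicates) and Suz12 (bottom, 2 replicates) within 5 kb of the start of the 6 members with H3K27me3, with control in grey, 4-OHT in red and lines joining lists of the same replicate number. H3K27me3 was lower after 4-OHT in all 3 pairs at *Snai2*, *Twist2* and *Zeb1* and higher in all 3 at *Cdh2*, and both 4-OHT Suz12 values of *Twist2* lie above both control values.

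To set the members beside other genes of the transition, 48 genes in 3 lists were examined in the TSS window. Of 18 epithelial genes, such as claudins, keratins and *Epcam*, 11 were higher for H3K27ac after 4-OHT and 0 lower, with a median difference of 681.2 bp. Of these 18 genes, 16 had H3K27ac in both control lists, and of all genes that did so 41.5% were higher. Of 19 mesenchymal and EMT-linked genes 5 were lower and 4 higher, and of 11 signals and partners 5 were lower and 3 higher. Over the 48 genes this gave 10 lower, beside 6.76% of all genes, and 18 higher, beside 21.4%. Of the 48, 37 had H3K27ac in both control lists, and of all genes that did so 14.2% were lower and 41.5% higher. The genes with the largest called differences were *Cdh11*, a mesenchymal cadherin (2725 and 4550 bp in control, 50 and 575 bp after 4-OHT), *Fn1*, which encodes fibronectin (4100 and 6225 bp, then 2350 and 2850 bp), *Pcdh8*, a protocadherin of paraxial mesoderm (2025 and 1800 bp, then 0 and 50 bp), and *Lef1*, a mediator of Wnt signaling (5650 and 6125 bp, then 2850 and 5250 bp).

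*Cdh11* and *Pcdh8* were also called in the Polycomb marks. Suz12 at *Cdh11* was 0 bp in both control lists and 1000 and 3375 bp after 4-OHT, and its H3K27me3 was 1625, 1675 and 1125 bp in control, against 2975, 5075 and 5950 bp after 4-OHT, higher in every list. Suz12 at *Pcdh8* covered 700 and 300 bp in control, against 1525 and 2950 bp after 4-OHT. *Tgfb2*, a ligand of the TGF-beta pathway, had 150 and 175 bp of Suz12 in control and 900 and 1675 bp after 4-OHT. H3K27me3 was lower at *Cdh3*, the gene of P-cadherin (3835, 5885 and 4735 bp, then 3010, 2935 and 1175 bp), at the receptor gene *Tgfbr1* (400, 1150 and 800 bp, then 0, 25 and 0 bp) and at the collagen gene *Col1a1*, whose means were 825 and 383.3 bp. *Cdh3* nonetheless had more Suz12 after 4-OHT, with 525 and 950 bp against 200 and 0 bp. Of the 48 genes, H3K27me3 was lower at 3, beside 2.25% of all genes, and higher at 1, beside 0.0358%. Of these 48, 14 had H3K27me3 in all 3 control lists, and of all genes that did so 19% were lower. Suz12 was higher at 6, beside 3.29%, and lower at 1, beside 0.590%. It was in both control lists at 10 of the 48, and of all genes so marked 25.9% were higher and 9.78% lower.

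The genes most like each member were found by the Euclidean distance of covered bp in the TSS window over the 17 lists. The nearest to *Snai2* was *Tnip2* (357.9 bp), to *Twist1* *Cdkn1c* (3141.4 bp), to *Twist2* *Smarcd3* (1607 bp), and to *Zeb2* *Rel* (1353.2 bp). For *Zeb1* it was *Gm10125* at 0 bp, since they share the start, and then *Adra1d* (669.9 bp). For *Cdh2* it was *Prkce* (1809.2 bp), which was also the third nearest to *Zeb2* (1475.5 bp). *Snai1* and *Cdh1*, with regions in fewer than 6 lists, were not searched.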

How the data were processed

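The 17 deposited lists give chromosome, start and end of regions that the authors called for every replicate on its own by a Poissonian comparison with input (threshold 1e-06 and 2-fold over input for FLAG, 1e-12 for the other marks), after alignment with Bowtie to mm9 (per the labels). Replicates were biological duplicates or, for H3K27me3 and FLAG, triplicates, whereas the paper gives duplicates for FLAG. The lists hold no score or count, so depth is unknown and a deeper library cannot be told from a stronger mark. The 11 inputs were not used here.

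Regions and covered bp were computed for all 22367 protein-coding genes of the GENCODE annotation of mm9, whose TSS was the 5′ end of the gene record, with a minimum overlap of 1 bp. The 8 members, the gene and marker lists and the motifs were chosen with earlier results of these data known. All members are named. Other EMT genes were named when called in the TSS window, at most 4 per mark by size of difference. Promoter sequences came from RefSeq (GRCm38.p6) and were located in mm9 by exact match. Same-numbered H3K27me3 lists correlated over genes in their deviations from condition means (0.908, 0.819 and 0.763). Control replicate 2 and 4-OHT replicate 3, and the reverse, also correlated (0.583 and 0.647), as replicate 1 stood apart, but each list correlated best with its own number, so the numbers were taken as pairs, as judged from the lists alone. Alternatives were other windows, scaling, width filters, joining, pairing and each replicate left out. Calculations were tested on simulated regions. Tools were Matplotlib 3.10.9, SciPy 1.17.1, NumPy 2.4.6 and Python 3.11.15.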

Additional observations from a re-analysis of the deposited data

How the results depend on the processing

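The lists bound what can be said: with 2 or 3 lists per condition and no counts, a lost region can be a region just under the threshold, and depth limits every call to an unknown extent. At the members, the H3K27ac calls at *Snai1*, *Zeb2* and *Twist2* kept their direction in every alternative run, and the numbers of members lower for H3K27ac stayed within 1.5 times of those reported. The call at *Cdh1* in the TSS window was lost with a window of 2.5 kb, where the conditions overlapped and the mean was 125 bp higher after 4-OHT.

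Scaling each list to its covered length gave 1 member higher for H3K27ac in the extended window and 1 in the gene body (*Cdh1* in both, beside 38.9% and 24.5% of all genes). It gave 0 lower for H3K27me3 in the TSS and extended windows (1.09% and 3.35%), where the call at *Snai2* was lost and its mean was 67.5 bp higher after 4-OHT, and for Suz12 in the gene body 1 lower (*Twist1*, beside 1.19%) and 0 higher (2.99%). It moved the share of higher among all called genes from 0.899% to 30.4% in the extended window and from 1.65% to 42.8% in the gene body for H3K27me3, and from 84.8% to 67.5% and from 84.9% to 71.4% for Suz12. Regions of at least 200 bp gave 0 members lower for H3K27me3 in the TSS and extended windows, beside 1.76% and 5.41% of all genes. Equal numbers of regions also gave 0, beside 1.48% and 4.22%. Joining within 1 kb gave 1 in the gene body, beside 2.28%. The cause of these changes was not tested.

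With the replicate block, H3K27me3 was lower at 3 members in each of the 3 windows and higher at 1 in the TSS and extended windows (*Cdh2*, beside 0.152% and 0.25% of all genes). H3K27ac was higher at 1 member in the extended window and 2 in the gene body (*Cdh1*, with *Twist1*), beside 39.4% and 24.6% of all genes. For H3K27ac and Suz12 the deviations of same-numbered lists of the 2 conditions correlated at 0.44 and 0.505. The labels do not say whether a shared number marks a shared differentiation. The block changed no other count of members by over 1.5 times.

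Leaving out 1 list at a time gave 0 to 1 members higher for H3K27ac in the TSS window, beside 26% to 32% of all genes. In the extended window it gave 0 to 2, beside 34.3% to 46.1% (2, *Cdh1* and *Zeb1*, without control replicate 1, beside 40.4%). In the gene body it gave 1 each time (*Cdh1* or *Twist1*), beside 22.7% to 29.5%. For H3K27me3, leaving out 1 list gave 1 to 3 lower in the TSS and extended windows, beside 2.52% to 6.07% and 7.6% to 16.3% of all genes. In the gene body it gave 0 to 3, beside 2.13% to 5.49% (3 without control replicate 1, beside 5.49%). For Suz12 it gave 1 to 5 higher in each window (5 without 4-OHT replicate 1, beside 7.56% of all genes in the TSS window, 7.41% in the gene body and 17.9% in the extended window). It gave 0 to 1 lower (*Twist1*, without 4-OHT replicate 2, beside 2.76%, 2.67% and 7.1% in the same order). Brg1-bound members ranged from 0 to 2 in each window, beside 0.121% to 2.07% of all genes in the TSS window. The shares were 0.210% to 3.59% in the gene body and 0.881% to 12.3% in the extended window. Leaving out both replicate 1 lists of H3K27me3, chosen after seeing the data, gave 3 lower in each window, beside 6.76%, 5.98% and 17.9% of all genes.

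Counting FLAG regions of any replicate gave 4 members with Brg1 in the extended window (*Zeb2*, *Cdh2*, *Snai1* and *Cdh1*), beside 44.3% of all genes, and extending the gene body by 100 kb gave the same 4, beside 19.6%. The share of H3K27ac control regions near the members missing after 4-OHT was 40.9% when missing from at least 1 4-OHT list (27.6% over the genome), 45.5% when 50% of a region had to be overlapped (30.4%), 47.1% for regions of either control list (38.3%), 11.1% for regions of at least 500 bp (13.4%) and 44.7% with the replicate block (36.3%), and ranged from 29.5% to 44.7% with 1 list left out (44.7% against 38.4% over the genome without control replicate 1, 30.8% against 24.9% without control replicate 2, 29.5% against 23% without 4-OHT replicate 1 and 34.1% against 24.4% without 4-OHT replicate 2).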
